A study of Homo sapiens with 10 samples.

Results

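The 50 genes described here encode ribosome biogenesis factors, the nucleolar proteins that transcribe, modify, cut and fold ribosomal RNA and assemble it with ribosomal proteins. They form a list of names with no threshold on a measured value, and all 50 were found once among the 19957 protein-coding genes, out of 60603 rows, of each of 2 deposited tables. NB4 is an established human line of acute promyelocytic leukemia cells. In the GSE1 knockdown, NB4 cells were given the lentiviral vector pLKO.1 puro without insert (EV) or that vector with the hairpin shA1 or shB2, each against GSE1, and RNA was taken 48 h after transduction (2 libraries per group, 6 in all). In the LSD1 inhibition, NB4 cells received DMSO or MC2580 at 2 µM for 24 h (2 libraries per group, 4 in all), where the sample titles spell the compound MC280 and the treatment field MC2580. The transduced groups, EV included, all went through 2 rounds of infection.

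Each table gives 1 value per gene that was used here, the base mean. It is the authors' mean, over all libraries of the experiment, of read counts divided by size factors. A base mean therefore pools EV with both hairpins, or DMSO with MC2580. It has no replicate error, and no difference between treated and control cells is described or tested below. The depth of single libraries is unknown here. In these bulk RNA samples, fewer expressing cells and less RNA per cell cannot be told apart.

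The myeloid identity of the cells was checked against 9 markers. MPO, the myeloperoxidase of promyelocyte granules, had the highest base mean of all protein-coding genes in both tables. PRTN3, AZU1, CTSG, CD33, SPI1, CEBPA and CEBPE ranged from 723 to 7723 in the knockdown table and from 1814 to 9239 in the inhibitor table. ELANE, the neutrophil elastase gene that also belongs to this stage, was nearly absent, with base means of 1.1 and 3.87. Of 10 markers of other cells, 8 were at or below 31.3 in both tables, and the exceptions were PECAM1, at 2048 and 689, and EPCAM, at 432 and 403.

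Ribosomes are assembled first in the nucleolus. RNA polymerase I makes a long precursor, box C/D and H/ACA small nucleolar RNAs guide its 2′-O-methylation and pseudouridylation, the large particle named the small-subunit processome folds and cuts its first portion, and separate sets of helicases, GTPases and nucleases mature the large subunit. Growing cells spend much of their transcription on this pathway, and the vertebrate genes for snoRNAs often lie within introns of genes for ribosomal or nucleolar proteins. The hexamer CACGTG, the canonical E-box, is known as a binding sequence of MYC with MAX and of other basic helix-loop-helix factors.

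E-box matches just downstream of the transcription start were a sequence feature of 14 of the 40 members that could be searched. In the RefSeq promoter windows on GRCh38.p14, each 250 bases before and 50 bases after a listed start, 40 of the 50 members had at least 1 window, and BOP1, DDX18, DDX52, MPHOSPH10, NOLC1, NOP58, RRP12, RRP1B, RRS1 and TCOF1 had none. CACGTG, which reads the same on both strands, was in a window of 19 of the 40 members. The following stretches are shown because they place the hexamer, in capitals, within the first bases of transcripts from several of the roles described below. All are on GRCh38, 5′ to 3′ on the strand of the gene.
FBL, chr19:39846356-39846385, minus strand: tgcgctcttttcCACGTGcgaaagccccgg
WDR43, chr2:28894658-28894687, plus strand: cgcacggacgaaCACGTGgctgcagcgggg
NOP14, chr4:2963374-2963403, minus strand: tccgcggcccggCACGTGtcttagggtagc
IMP4, chr2:130342900-130342929, plus strand: ttctcccggaccCACGTGgaagcggcactc
PNO1, chr2:68157885-68157914, plus strand: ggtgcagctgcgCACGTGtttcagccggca
PES1, chr22:30591880-30591909, minus strand: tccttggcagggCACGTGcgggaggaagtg
GNL3, chr3:52686026-52686055, plus strand: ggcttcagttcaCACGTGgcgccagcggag
MRTO4, chr1:19251807-19251836, plus strand: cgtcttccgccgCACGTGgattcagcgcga

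The hexamer began at base 7 of the FBL window counted from the start, at base 4 in WDR43, at base 16 in NOP14 and IMP4, at base 10 in PNO1, at base 14 in PES1, at base 7 in GNL3 and at base 15 in MRTO4. GNL2, BYSL, LTV1, GAR1, NOP2 and EBNA1BP2 also held one after the start, so 14 members had a match between bases 4 and 43. In RRP9, UTP20, NOP10, DDX21 and UTP14A it began only before the start. UTP20 and NOP10 had it close to the start, at -10 and -11, RRP9 at -5, where it ran into the first transcribed base, and UTP14A at the far end of the window, at -241. IMP4, EBNA1BP2 and NOP10 had 2 matches each, and those of EBNA1BP2 lay in windows of different listed starts.

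Members and other genes differed more in the position of the hexamer than in its presence before the start. In the 50 bases after the start, 14 of 40 members held the hexamer (35%), against 1.12% of all 27305 genes with a window, 1.35% of the 13149 that were protein-coding and detected in the knockdown table, and 2.17% of the 3592 in the top 25% by base mean. Over the whole window the share was 47.5% of the members, 8.77% of all genes and 15.1% of the top 25%. In the 250 bases before the start alone, 6 members (15%) held it. The share there was 7.73% of all genes, 10.3% of the detected protein-coding genes and 13.2% of the top 25%. Of all matches, 63.6% lay after the start in the members and 11.1% did over every window. These shares are descriptions without a test, and the search, its hexamers and the split at the start were chosen after the data had been seen.

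Other ribosome biogenesis genes, from a list of 77 that holds no member, lay between. Of the 67 with a window, 17 held the hexamer (25.4%) and 11 held it after the start (16.4%). The other hexamers were searched on both strands. CCGGAA, the core of many ETS-family sites, was in 20 of the 40 members, 20.1% of all genes, 40.0% of the top 25% and 58.2% of the other biogenesis genes. TGCGCA, part of the site of NRF1, was in 12 of the 40 members (30%), 9.76% of all genes, 18.4% of the top 25% and 22.4% of the other biogenesis genes. TATAAA, the letters of the TATA box, was counted anywhere in the window. It was in 2 of the 40 members (5%), at -243 in LTV1 and -160 in UTP20. Its share was 14% of all genes, and 7.46% of both the top 25% and the other biogenesis genes. The median GC content of the windows was 63.3% in the members, 58.7% in all genes and 65.3% in the top 25%.

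By role, the E-box was found in 6 of 10 processome genes and 3 of 4 later factors of the small subunit, in DDX21, in 1 of the 2 box C/D genes with a window, in 5 of 12 of the other large-subunit factors, in 1 of the 2 PeBoW genes with a window and in 2 of the 4 H/ACA genes. None of the 3 RNA polymerase I genes held it, nor did NCL and NPM1. These groups are small, and differences between them were not tested. Base means of members with and without the hexamer overlapped. The median was 5056 with the hexamer and 4414 without it in the knockdown table, and 5868 and 6192 in the inhibitor table. Per kilobase of exons the median was higher with the hexamer in both, at 1699 against 1026 and at 1648 against 1425. Per kilobase of the canonical transcript the medians were close, at 2291 against 2224 and at 2720 against 2596. By coding sequence the order was reversed, at 3848 with the hexamer against 4742 without it and at 3241 against 5774. The direction therefore depended on the length used, and these differences were not tested.

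A second feature was the load of small nucleolar RNA genes. Inside the gene bodies of 8 members, 26 annotated snoRNA or scaRNA genes lay on the same strand. That is 16.0% of the members, against 253 of 17298 detected protein-coding genes (1.46%) and 141 of the 4331 in the top 25% by base mean (3.26%). GNL3 held 6, of which 2 are overlapping annotations of nearly the same stretch, NOP56 held 5, NOP58 held 4, NCL and WDR43 held 3 each, DKC1 and PPAN held 2 each, and POLR1C held 1. Several of these hosts make the proteins that bind such RNAs: NOP56 and NOP58 are the scaffold of box C/D particles and DKC1 is the pseudouridine synthase of H/ACA particles. Of the 26, 25 lay in introns of the host's canonical transcript. The exception was the scaRNA in POLR1C, which lay beyond the last exon of the canonical transcript. The remaining 42 members held none.

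The following RNAs are shown to let the boxes of both classes be seen within their hosts, from the GENCODE 44 transcripts on GRCh38. Capitals mark box C (TGATGA) near the 5′ end and box D (CTGA) near the 3′ end, or, in SNORA51 and SNORA36A, the ACA 3 bases from the 3′ end.
SNORD57 in NOP56, chr20:2656939-2657010, plus strand: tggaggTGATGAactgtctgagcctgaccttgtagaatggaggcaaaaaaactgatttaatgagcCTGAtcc
SNORD11 in NOP58, chr2:202293051-202293134, plus strand: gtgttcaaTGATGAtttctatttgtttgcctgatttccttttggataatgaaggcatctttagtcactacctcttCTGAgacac
SNORD20 in NCL, chr2:231456444-231456523, minus strand: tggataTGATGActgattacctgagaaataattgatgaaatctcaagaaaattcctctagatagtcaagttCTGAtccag
SNORD53 in WDR43, chr2:28927067-28927144, plus strand: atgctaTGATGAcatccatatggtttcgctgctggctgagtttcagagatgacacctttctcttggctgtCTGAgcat
SNORD53B in WDR43, chr2:28927983-28928060, plus strand: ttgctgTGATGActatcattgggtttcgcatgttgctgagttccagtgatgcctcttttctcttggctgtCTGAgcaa
SNORA51 in NOP56, chr20:2655067-2655198, plus strand: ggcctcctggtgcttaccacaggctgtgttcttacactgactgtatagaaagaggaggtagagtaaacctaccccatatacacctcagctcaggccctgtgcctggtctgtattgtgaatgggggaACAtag
SNORA36A in DKC1, chrX:154768528-154768659, plus strand: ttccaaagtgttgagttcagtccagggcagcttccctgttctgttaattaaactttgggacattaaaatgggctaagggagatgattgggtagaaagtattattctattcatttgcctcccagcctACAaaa

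The 26 RNAs were 68 to 137 bases long. Exact boxes C and D were found in 11, box C alone in 4, box D alone in 2, SNORD86 and SNORD56, and the terminal ACA in 4, while 5 had none of these exact letters at the searched places. SNORD53 and SNORD53B, in neighbouring introns of WDR43, have the same length of 78 bases. The RNAs themselves were hardly counted: 24 of the 26 were listed at 0 in both, and the highest value was the 1.37 of SNORA51 in the knockdown table, where its host NOP56 had 29772. The libraries were made from mRNA, and its part in these values was not tested.

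All 50 members were expressed above the median of detected protein-coding genes, which was 409 in the knockdown table and 396 in the inhibitor table. There were 47 members in the top 25% of each table. The exceptions in both were UTP15, GAR1 and DDX52. The median member was at percentile 89.6 in the knockdown table and 92.3 in the inhibitor table, where 50 is the middle of all detected protein-coding genes. The 77 other biogenesis genes had a median percentile of 80.8 and 81.4, and 54 and 55 of them were in the top 25%. Together the members made up 1.22% of all base means in the knockdown table and 1.28% in the inhibitor table, and NCL with NPM1 gave 35.7% and 35% of that sum.

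Because longer transcripts give more reads, levels were compared between genes as base means per kilobase of annotated exons, within 1 table. NCL and NPM1, both nucleolar phosphoproteins, were the highest of the 50 members. NCL, nucleolin, which binds ribosomal RNA precursors and chaperones histones, had a base mean of 117721 in the knockdown table and 113936 in the inhibitor table, or 13199 and 12774 per kilobase. NPM1, nucleophosmin, a chaperone of histones and ribosomal proteins that is recurrently mutated in acute myeloid leukemia, had base means of 57967 and 70016. Per kilobase of exons NCL was 1.89 and 1.52 times NPM1, but per kilobase of the canonical transcript it was 0.683 and 0.547 times, so their order depended on the length used.

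NOLC1, a chaperone of snoRNPs, had base means of 23428 and 19289, and TCOF1, the treacle protein that supports RNA polymerase I transcription, 10386 and 11251. Per kilobase of exons TCOF1 was at 908 and 984, below the member medians of 1455 and 1509. NOLC1 was 6.5 and 4.94 times TCOF1 on this scale, and it remained higher per kilobase of the canonical transcript, at 3.05 and 2.31 times.

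Among the box C/D proteins, NOP56 had base means of 29772 and 34642, its partner NOP58 10244 and 10255, and FBL, the methyltransferase fibrillarin, 5070 and 6986. The order of NOP56 above both partners held under either length. NOP56 was 1.92 and 2.23 times NOP58 per kilobase of exons and 2.54 and 2.14 times FBL.

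In the H/ACA particle, DKC1, dyskerin, had base means of 14583 and 13801, NHP2 4234 and 6192, NOP10 2678 and 3767, and GAR1 951 and 1162. GAR1 was the lowest of the 4 subunits per kilobase as well, at 484 in the knockdown table and 592 in the inhibitor table. NHP2 was 5.93 and 7.09 times GAR1 per kilobase of exons, and 5.80 and 6.93 times per kilobase of the canonical transcript. DKC1 against NHP2 was less certain, at 0.553 and 0.358 times per kilobase of exons and 1.09 and 0.704 times per kilobase of the canonical transcript.

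The RNA polymerase I subunits were the lowest group by median per kilobase of exons. POLR1A and POLR1B, which form the catalytic core, had base means of 7616 and 7605 and of 4232 and 4300. POLR1C, shared with RNA polymerase III, had 2728 and 3310. Their levels per kilobase of exons lay between 387 and 496 in the knockdown table, below the member median of 1455. DDX21, a helicase that binds ribosomal and snoRNA, had 17048 and 10641.

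The 12 genes of the small-subunit processome had base means from 842 to 11996 in the knockdown table and from 813 to 12278 in the inhibitor table. Per kilobase of exons NOP14 was the highest, at 3371 and 3450, but per kilobase of the canonical transcript IMP3 was above it, at 3899 and 5483 against 3373 and 3453. UTP15 and DDX52 were the lowest by either of these lengths, at 133 per kilobase of exons each in the knockdown table and at 129 and 93.6 in the inhibitor table. UTP15, WDR43 and HEATR1 belong to the same early-acting subcomplex, and WDR43 (1905 per kilobase in the knockdown table) and HEATR1 (456) were both above UTP15. IMP3, IMP4 and MPHOSPH10, which join the particle together with U3 snoRNA, had base means of 4414, 5056 and 4690 in the knockdown table and of 6207, 7441 and 3940 in the inhibitor table. The U3-binding protein RRP9 had 3094 and 4618, UTP14A 3030 and 3299, UTP20 3350 and 2617, and the helicase DDX10 3465 and 3528.

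Of the later small-subunit factors, NOB1, the nuclease that makes the 3′ end of 18S rRNA, was the highest per kilobase, at 3141 and 3661. LTV1, a factor of the exported pre-40S particle, followed at 2639 and 2053. RRP12, which takes part in export, and PNO1, the partner of NOB1, were the lowest per kilobase of exons, with 821 and 856 for RRP12 and 854 and 770 for PNO1. BYSL was between, at 1453 and 1386, and its place relative to RRP12 and PNO1 changed with the length used.

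PES1, BOP1 and WDR12 form the PeBoW complex of the large subunit. Their base means were 8254, 4855 and 3346 in the knockdown table and 12440, 7584 and 3563 in the inhibitor table. PES1 was 5.24 and 7.42 times WDR12 per kilobase of exons, and 8.79 and 12.4 times per kilobase of the canonical transcript, but 1.77 and 2.51 times per kilobase of coding sequence. By that length BOP1 was 0.823 and 1.21 times WDR12, so PES1 was the highest by every length used, and the order of BOP1 and WDR12 depended on the length.

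The 15 other large-subunit factors had base means of 3084 to 11615 in the knockdown table and of 3965 to 17170 in the inhibitor table, with RRS1, which helps to insert the 5S particle, lowest and PPAN highest in both. PPAN was also the highest per kilobase of exons, at 4022 and 5945, while per kilobase of the canonical transcript DDX56 was slightly above it in the knockdown table (5095 against 5046). The nucleolar GTPases GNL3, nucleostemin, and GNL2 had 2858 and 1079 per kilobase in the knockdown table, and the helicases DDX56, DDX18 and DDX51 had 2568, 913 and 707. LAS1L, a nuclease of the internal spacer, was the lowest per kilobase of exons, at 437 and 467, but not per kilobase of the canonical transcript, where it had 2224 and 2376 and DDX51 955 and 1570. RRP1B was 1.06 and 0.753 times its paralog RRP1 per kilobase of exons and 0.835 and 0.593 times per kilobase of the canonical transcript. MRTO4, NOP16, EBNA1BP2, NOP2 and NIP7 lay between 728 (NIP7) and 1837 (MRTO4) per kilobase in the knockdown table.

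Some of these values may share reads with other genes. The library kit does not mark the strand, so reads within exon bases shared on opposite strands do not show their gene. In 8 members such a partner had at least 10% of the member's base mean. That value covers the whole partner gene and not only the shared bases. POLR1C overlapped XPO5 (base mean 6795 in the knockdown table) in 6.32% of its exon bases, NIP7 overlapped COG8 (1991) in 18.4%, NHP2 overlapped RMND5B (1311) in 28.0% and IMP3 overlapped SNX33 (1348) in 31.7%. On the same strand, NOP2 shared 54.4% of its exon bases with an unnamed protein-coding gene, ENSG00000285238 (2049). PPAN shared 47.6% with the readthrough gene PPAN-P2RY11 (584). Of the consecutive 60-base pieces of the canonical transcript, ENSG00000285238 held 41 of the 44 of NOP2 exactly. PPAN-P2RY11 held 22 of the 38 of PPAN. The values of NOP2 and PPAN may therefore not be their full levels, and how reads were divided was not tested. Pseudogenes named after a member numbered 69, and 46 of them belonged to NPM1, with a summed base mean of 1163, or 2.01% of NPM1. NPM1P27 accounted for 903 of this. It was the only annotated gene elsewhere in the genome whose transcripts held at least 25% of the 60-base pieces of a member's canonical transcript exactly, with 6 of the 22 of NPM1.

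The order of the members was much the same in both experiments. The Spearman correlation of the base means across the 50 genes was 0.93, a description over genes that share their lengths and sequences in both tables, and 32 members moved by at most 5 ranks. The 2 tables were normalized separately, so members were set side by side as shares of the sum of all base means. The median ratio of the share in the inhibitor table to that in the knockdown table was 1.06 for the members, with 31 above 1, and 0.938 for 10257 protein-coding genes whose base mean reached 100 in both tables, of which 41.1% were above 1. It was 0.990 for the 77 other biogenesis genes. Treated and control libraries are pooled in each table, and the experiments differ in transduction, solvent and time, so what the ratio reflects cannot be told apart, and it was not tested.

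Of the 50 members, 48 had ratios between the 5th and 95th percentile of those protein-coding genes, 0.558 and 1.51. The exceptions were DDX51, at 1.62, and BOP1, at 1.54. PES1 was at 1.48, RRP9 at 1.47, PPAN at 1.46, IMP4 at 1.45 and NHP2 at 1.44. The lowest were DDX21, at 0.614, DDX52, at 0.691, LTV1, at 0.765, and UTP20, at 0.769. Partners within a complex were not always close: in the PeBoW complex WDR12 was at 1.05, and among the proteins that join with U3, IMP3 was at 1.38 and MPHOSPH10 at 0.827. Of the RNA polymerase I subunits, POLR1A and POLR1B were near 1, at 0.983 and 1.00, and POLR1C was at 1.19. Of the 15 other large-subunit factors 12 were above 1, and of the 12 processome genes 6 were.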

How the data were processed

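mRNA-seq libraries of NB4 cells were prepared by the authors with the TruSeq RNA v2 kit. The submitters' processing notes name bcl2fastq 2, FastQC 0.11.5, STAR 2.7, RSEM, DESeq2 and the hg38 build. The signal columns deposited by the authors hold base means, that is, counts divided by DESeq2 size factors and averaged over 6 (knockdown) or 4 (inhibitor) libraries, so they carry no replicate error. The other deposited columns hold the authors' own comparisons (log2 fold change, standard error, Wald statistic, p-value and adjusted p-value) and were not used, so no test between groups was made and no paired or per-library value is given. The depth of each library is not given in the sources used here.

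The 45 PAR_Y rows were dropped. Of the other 60558 identifiers, 60261 matched GENCODE release 44 (GRCh38, the sequence of hg38), which gave exon lengths, hosted snoRNA and scaRNA genes and exon overlaps. The release used by the authors is not given in the sources used here. Levels were computed with Python 3.11.15, pandas 2.3.3, numpy 2.4.6 and scipy 1.17.1, and the helper functions were tested on simulated data. Percentiles are among protein-coding genes with a base mean above 0. Promoter windows came from RefSeq (GRCh38.p14), and a gene counted as holding a hexamer if any of its windows did. Copies were searched with consecutive 60-base pieces of canonical transcripts. Proteins were not analysed here.

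The members and lists were chosen with earlier results of these data known. All 50 members were named, with full values for the highest and lowest of each role and for complexes. Alternatives were other backgrounds, lengths, sums of base means, kinds of small RNA and promoter windows.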

Additional observations from a re-analysis of the deposited data

How the results depend on the processing

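The number of members in the top 25% of protein-coding genes, 47 in each table, lay between 43 and 46 with a background of at least 10, per kilobase of exons or per kilobase of the canonical transcript. Of the 10 members highest per kilobase of exons, 6 were still among the 10 highest per kilobase of coding sequence in both tables, and for the canonical transcript 7 were in the knockdown table and 6 in the inhibitor table. The median ratio of shares was 1.07 without the mitochondrial genome's genes (1.069) and without MPO (1.067), against 1.06, and stayed above 1. Single positions within a role also moved, such as NOP14, LAS1L and WDR12. Hosts of small RNA genes numbered 7 with snoRNA alone and 8 on either strand. Members with CACGTG numbered 6 of 40 when only the bases before the start were searched, since 12 held it only after the start and the match of RRP9 straddled it, and 16 with only the first listed start of each gene, against 19. The lengths by coding sequence and canonical transcript, the sum without MPO and the promoter settings were chosen after seeing the data. A protein-based coding length was not run. Without values per library, no library could be left out, and no paired analysis was possible because the tables used here hold no value per replicate.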

Other observations

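The 77 other ribosome biogenesis genes were all found, 3 of them under an older symbol. Their median base mean was 2762 in the knockdown table and 2752 in the inhibitor table. NOP53, a factor of the large subunit, was the highest, at 37877 and 48864. PWP2, a core protein of the small-subunit processome, was the lowest, at 3.75 and 4.53, while the next lowest in the knockdown table, TAF1A, had 385. The value of PWP2 may not be its full level: 47 of the 53 consecutive 60-base pieces of its canonical transcript are held exactly by another gene on chromosome 21, FP565260.1, which GENCODE 44 marks as an artifact and which had base means of 460 and 510. How the authors' counting divided reads between the copies was not tested.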
